A study of Mus musculus with 15 samples.

Results

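The genes followed here move cholesterol and lipoprotein lipid into, through and out of cells, and were measured in the thalamus of 4.5-month-old mice. The 10 genes were taken by symbol from the deposited expression files: *Abca1*, *Abcg1*, *Lrp1*, *Lpl*, *Cd36*, *Scarb1*, *Lcat*, *Npc1*, *Npc2* and *Soat1*. All 10 were found, among 29659 genes. The 15 bulk RNA-seq libraries fell into 4 genotypes. EL mice (3 libraries) carried human APOE4 knocked in at both copies of the mouse Apoe gene, with an intact Lilrb4a gene. ELKO mice (3 libraries) were APOE4+/+ and Lilrb4a-/-. 5EL mice (5 libraries) were APOE4+/+ and Lilrb4a+/+ and carried the 5xFAD transgenes, mutant human amyloid precursor protein and presenilin genes that give amyloid plaques and are driven by the neuronal Thy1 promoter. 5ELKO mice (4 libraries) were APOE4+/+ with 5xFAD and Lilrb4a-/-. A further 5ELKO library of the study was not analysed here, the study's own codes for the 5ELKO samples are not explained in the sources used here, and groups follow the sample labels. All groups therefore shared the APOE4 knock-in, and no library came from a mouse with its own Apoe by label. Lilrb4a encodes an inhibitory immunoglobulin-like receptor of myeloid cells, and the study asked how its loss alters the response of microglia to amyloid.

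In brain, cholesterol is made locally and is handed from astrocytes to other cells on lipoprotein particles built around APOE. Abca1 and Abcg1 are the membrane pumps that load cholesterol and phospholipid onto such particles, and both are classical targets of the liver X receptors (LXR), which sense oxysterols. Lrp1 is the large endocytic receptor that takes up APOE particles, Cd36 and Scarb1 are class B scavenger receptors, and Lpl hydrolyses lipoprotein triglyceride. Lcat esterifies cholesterol on the particle, Npc2 and Npc1 pass cholesterol out of the late endosome, and Soat1 esterifies it for storage in lipid droplets.

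*Abca1* was the gene whose 5EL and EL libraries did not overlap, and its promoter is shown for that reason. The 250 bases before its start site lie at chr4:53159896-53160145 on the minus strand (RefSeq, GRCm38.p6). The capitals mark the only match in this window to a loosened form of the direct repeat to which LXR binds, NGGTNA given in tandem with a spacer of 4 bases, which reads on the opposite strand from base -67 to base -52 counted from the start.
Abca1 promoter: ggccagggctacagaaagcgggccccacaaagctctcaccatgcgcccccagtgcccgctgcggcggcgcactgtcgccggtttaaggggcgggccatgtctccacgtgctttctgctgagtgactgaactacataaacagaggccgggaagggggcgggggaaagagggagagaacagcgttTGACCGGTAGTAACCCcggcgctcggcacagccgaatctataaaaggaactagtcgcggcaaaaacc
This loosened repeat was found on either strand in 236 of 32851 RefSeq mouse promoters of the same kind, each 300 bases long with 50 bases after the start, or 0.718%. The table held a promoter for 6 of the 10 genes, and only *Abca1* among them had the match. An E-box (CACGTG, in 7.15% of promoters) began at base -147 and a TATA box (TATAAA, in 13.6%) at base -29 of the *Abca1* promoter. The strict repeat, AGGTCA in tandem with a spacer of 4, was in 0.015% of promoters and in none of the 6. The same held for the sterol element TCACNCCAC (1.24% of promoters) and for AGGTCA in tandem with a spacer of 1 (0.04%). These matches are descriptions of the letters and not of binding.

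The study also designed qPCR primers for *Abca1*, *Lpl* and *Cd36*, which were also the 3 of the 10 genes below a nominal p of 0.05 in 5EL against EL. They are shown because they mark the exons through which these transcripts were followed elsewhere in the study. There the study applied qPCR to sorted microglia of 5EL and 5ELKO mice and reported alterations in these genes.
Abca1 forward: ggagcctttgtggaactcttcc
Abca1 reverse: cgctctcttcagccactttgag
Lpl forward: gcgtagcaggaagtctgaccaa
Lpl reverse: agcgtcatcaggagaaaggcga
Cd36 forward: ggacattgagattcttttcctctg
Cd36 reverse: gcaaaggcattggctggaagaac
On GENCODE transcripts (GRCm38) the *Abca1* pair matched exons 25 (chr4:53071894-53071915) and 26 (chr4:53070097-53070118) of 50, with an amplicon of 121 bases. The *Lpl* pair matched exons 4 (chr8:68894694-68894715) and 5 (chr8:68895708-68895729) of 10, with an amplicon of 113 bases. The *Cd36* pair matched exons 9 (chr5:17798239-17798262) and 10 (chr5:17797100-17797122) of 15, with an amplicon of 118 bases, and was present in 5 of 6 coding transcripts. The RNA-seq values below count reads over all exons of a gene and so are not limited to these stretches.

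The deposited values were on a log2 scale and came without counts, so the depth behind each gene is unknown and only the spread between libraries could be used as its error. None of the 105 pairs of libraries held identical values. The deleted gene, Lilrb4a, was near the lower end of the scale throughout, at 2.33 in all 7 libraries from knockout mice and between 2.34 and 2.66 in the other 8. The thalamic neuron marker list (Tcf7l2, Prkcd and 6 others) had a mean level of 12.36 to 13.03 in the 15 libraries. 1 library stood apart in a gene of this pathway. Mouse Apoe was at 10.90 in the library labelled ELKO replicate 1 and at 5.92 to 6.37 in the other 14, although all mice were labelled APOE4+/+. Results that rest on this library are given with and without it. 5EL replicate 1 and ELKO replicate 2 were high in choroid plexus genes, with a mean level of 8.29 and 8.65 against 6.02 to 6.60 in the other 13. Hepatocyte genes such as Alb had a mean level of 4.67 to 5.00 in the 5ELKO libraries and 5.15 in EL replicate 1, against 4.26 to 4.46 in the other 10. Erythroid genes had a mean level of 4.65 in EL replicate 2 and 5.39 in EL replicate 3, against 3.93 to 4.42 in the other 13, and EL replicate 3 was also the lowest library for *Abca1*, *Lrp1*, *Lpl*, *Scarb1* and *Npc1*.

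Per kilobase of exon, *Lrp1* was the most abundant of the 10 transcripts and *Cd36* the least. On the log2 per kilobase scale the means over 15 libraries were 9.05 for *Lrp1*, 8.30 for *Lcat*, 7.92 for *Npc2*, 7.56 for *Abcg1*, 7.37 for *Npc1*, 7.01 for *Abca1*, 6.44 for *Soat1*, 5.00 for *Scarb1*, 4.10 for *Lpl* and 2.57 for *Cd36*. This order held in 15 of 15 libraries. The ranges over libraries overlapped between *Abcg1* and *Npc1* and between *Npc1* and *Abca1*, so these neighbours were separated within each library but not across libraries. Without the length correction, *Lrp1* stood above 98.6% of the genes tested and *Cd36* above 9.4%. The spread within a genotype was widest for *Lrp1* (SD 0.24 on the log2 scale), *Lpl* (0.22) and *Abca1* (0.20), and lay between 0.09 and 0.14 for the other 7, where the median gene of a level of 8 to 10 had an SD of 0.10.

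**Figure D1:**
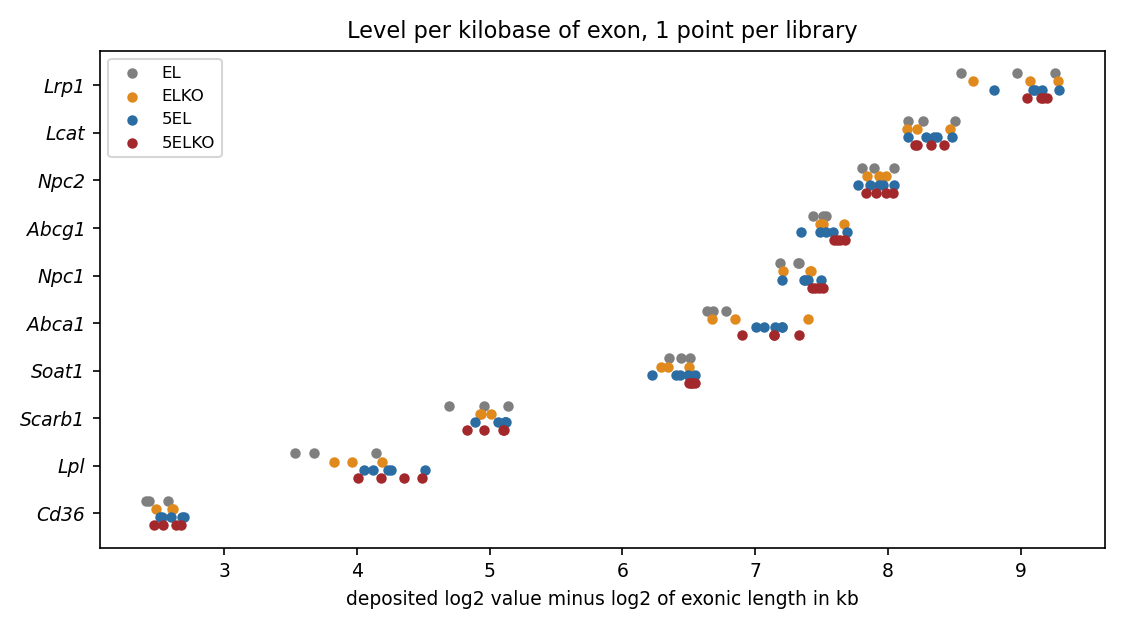
Level of each gene per kilobase of exon (x axis: deposited log2 value minus the log2 of the exonic length in kb; y axis: gene), 1 point per library, coloured by genotype. *Lrp1* lies highest with a mean of 9.05 and *Cd36* lowest with 2.57, and the clouds of *Abcg1*, *Npc1* and *Abca1* touch.

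None of the 10 genes passed the adjusted test in any of 7 comparisons between genotypes (limma, a linear model per gene with variances moderated across genes, with Benjamini-Hochberg adjustment over 15743 or 15804 genes, the smallest adjusted p of a member being 0.63). In the same test 0.0191% of all genes passed in 5ELKO against 5EL and 0% in each of the other 6 comparisons. The differences that came nearest were those with 5xFAD, where *Abca1* and *Lpl* lay above the mice without it. For deletion of Lilrb4a in 5xFAD mice the 10 differences lay between -0.06 and 0.10 on the log2 scale. The values of every library are given below by the role of each gene, and p-values measure only the spread between these libraries. In bulk tissue, fewer cells of a type and less RNA per cell cannot be told apart.

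**Figure D2:**
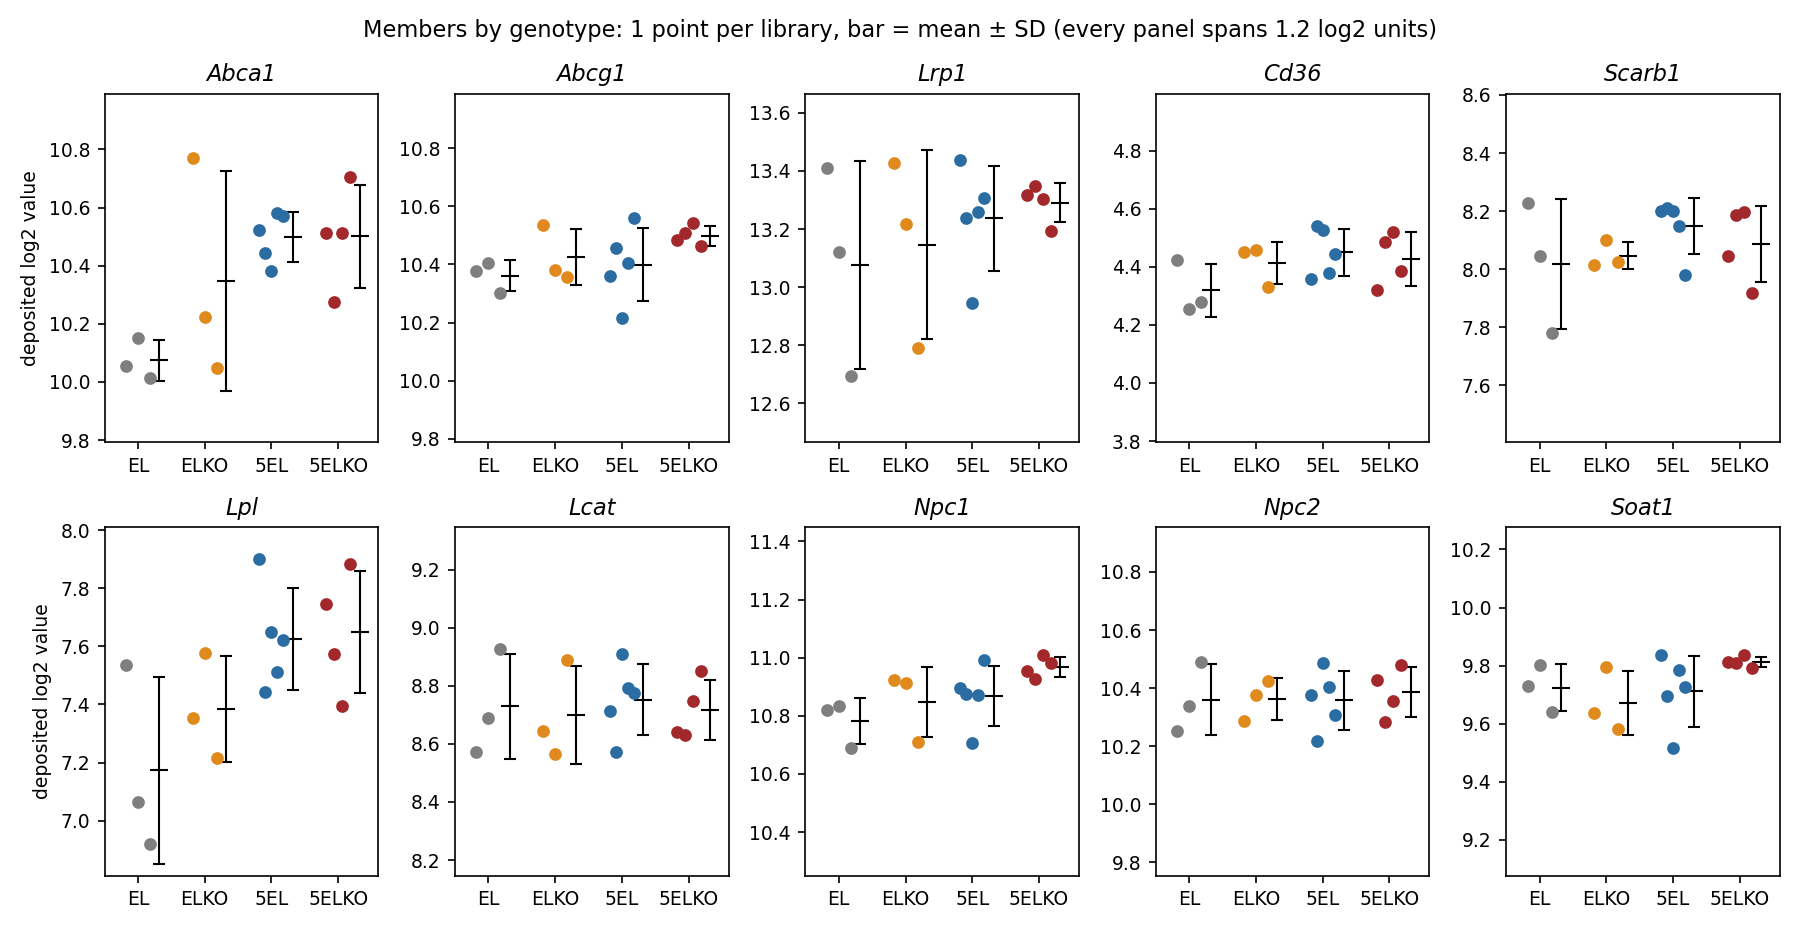
Deposited log2 value of the 10 genes (y axis, each panel spanning 1.2 log2 units) in each library of the 4 genotypes (x axis), with the mean ± SD of the group as a bar. The 5 libraries of 5EL lie above the 3 of EL for *Abca1*, and 1 ELKO library has the highest *Abca1* value of all at 10.77.

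*Abca1*, the pump that lipidates APOE, lies on chromosome 4 (GRCm38, 53030787 to 53159895, minus strand). Its deposited log2 value was 10.06, 10.15 and 10.01 in the 3 EL libraries and 10.77, 10.22 and 10.05 in the 3 ELKO libraries. It was 10.52, 10.44, 10.38, 10.58 and 10.57 in 5EL and 10.51, 10.27, 10.51 and 10.70 in 5ELKO. All 5 libraries of 5EL were above all 3 of EL, and the highest value of all was that of ELKO replicate 1. The difference of 5EL from EL was 0.43 on the log2 scale (SE 0.126), a fold of 1.34, with a 95% interval from 0.16 to 0.69 and a limma adjusted p of 0.63. The two-sided exact permutation p was 0.0179, which is the smallest that 5 against 3 libraries allow. 3 of the 10 genes were below a nominal p of 0.05 in this comparison (*Abca1*, *Lpl* and *Cd36*), against 7.7% of all genes tested in either direction, and 1 of 10, *Abca1*, had groups that did not overlap, against 3.26% of all genes.

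Without Lilrb4a the 5xFAD difference of *Abca1* was 0.15 (SE 0.132, exact permutation p = 0.457), and ELKO replicate 1 lay above all 5ELKO libraries. The difference between the 2 contrasts, the interaction, was -0.27 (SE 0.182) with a 95% interval from -0.66 to 0.12, which crosses 0. The interaction was -0.06 (SE 0.128) without ELKO replicate 1 and -0.42 (SE 0.168) without ELKO replicate 3, the lowest of that group. Averaged over both Lilrb4a genotypes, *Abca1* lay 0.29 higher with 5xFAD (SE 0.0911, limma adjusted p = 0.693, exact permutation p = 0.024).

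How firm this was depended on single libraries, of which ELKO replicate 1 is given first. Without that library all 9 libraries with 5xFAD lay above all 5 without it, between 10.27 and 10.70 against 10.01 and 10.22, an ordering shared by 23 of the 15804 genes tested, or 0.146%. The averaged difference was then 0.40 (SE 0.0638, a fold of 1.32, 95% interval 0.26 to 0.53) and *Abca1* had the lowest limma p of all genes tested. Its adjusted p was 0.34, and between 0.203 and 1.0 over all alternatives. Of all 15804 genes, 1786 were below a nominal limma p of 0.05 in this fit, against 1038 in the main fit. The exact permutation p of *Abca1* was 0.00119, the smallest that this layout allows. The library was set apart with its *Abca1* level known, so these values describe what it contributes. Leaving out ELKO replicate 2, ELKO replicate 3 or 5ELKO replicate 4 in its place gave exact permutation p-values of 0.0667, 0.0905 and 0.0518. In ELKO against EL the difference of *Abca1* was 0.27 (SE 0.141, exact permutation p = 0.3), and it was 0.06 without ELKO replicate 1 and 0.42 without ELKO replicate 3. In 5ELKO against ELKO the values without these libraries were 0.37 and 0.00.

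The value of *Abca1* in ELKO replicate 1 exceeded the highest of the other 5 libraries without 5xFAD by 0.55, and 11 genes, or 0.0696% of those tested, exceeded them by as much. *Abcg1*, *Lrp1* and *Npc1* were also above all 5 others there, by 0.13, 0.02 and 0.01, so that 4 of 10 genes stood above, against 18.5% of all genes tested. *Lpl* was not, at 7.35 against 6.92 to 7.58. In the same library 6 of the 10 markers of disease-associated microglia were above all 5 others, with a mean level of 7.66 against 7.44 to 7.56, and so were 3 of the 4 tested markers of border macrophages. The same held for 2 of 8 general microglia markers and 2 of 6 astrocyte markers, among them Gfap, the astrocyte filament gene, at 11.23 against 9.66 to 10.97. Below all 5 others were 1 of the 8 microglia markers and 2 of the 6 astrocyte markers. So were 10 of 12 hepatocyte, 3 of 6 oligodendrocyte, 3 of 7 endothelial and 3 of 6 mural markers. The part of these cells in the level of *Abca1* was not tested. Whether the Apoe level of this library has a part in its *Abca1* level was not tested.

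**Figure D3:**
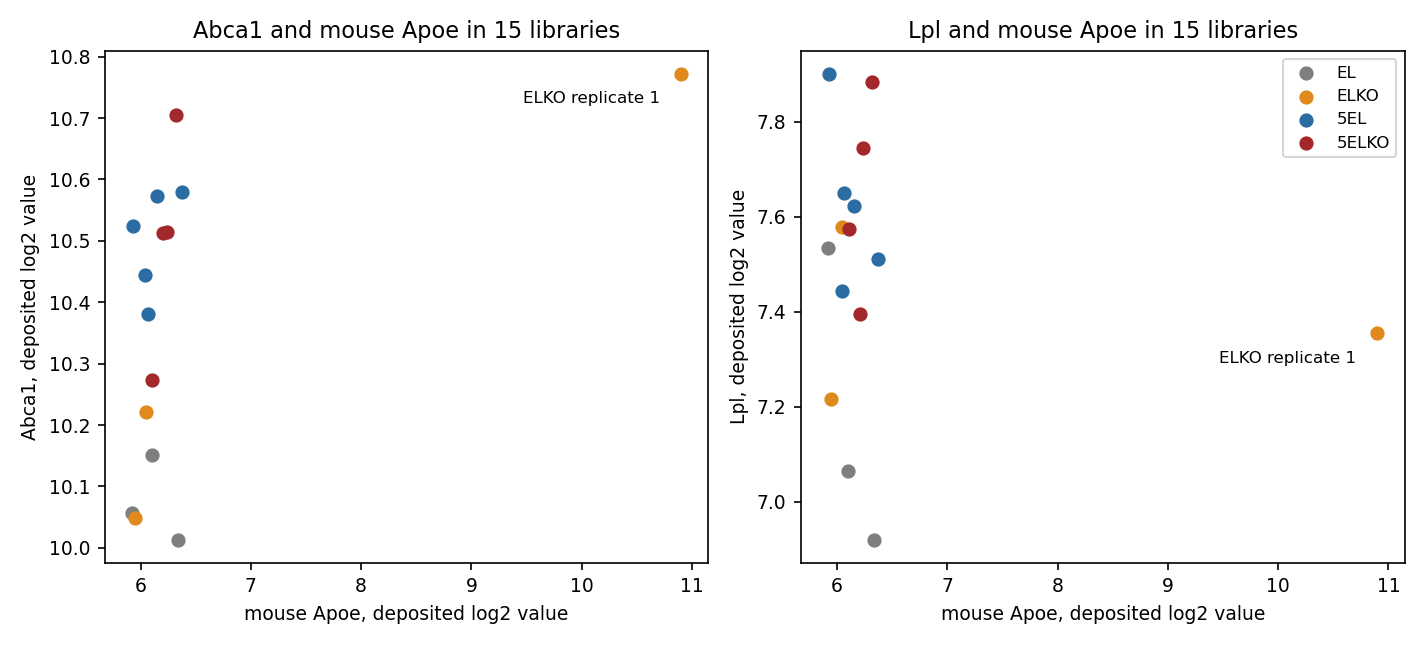
Deposited log2 values of *Abca1* (left) and *Lpl* (right) on the y axes against mouse Apoe on the x axes, 1 point per library. ELKO replicate 1 stands alone at an Apoe value of 10.90 and has the highest *Abca1* value, 10.77, while its *Lpl* value of 7.35 lies among those of the other libraries without 5xFAD.

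*Abcg1*, the pump that adds cholesterol to particles already formed, showed little movement. Its value was 10.38, 10.40 and 10.30 in EL and 10.54, 10.38 and 10.36 in ELKO. It was 10.36, 10.46, 10.22, 10.40 and 10.56 in 5EL and 10.48, 10.51, 10.54 and 10.46 in 5ELKO. The 5ELKO libraries were tightly grouped (SD 0.03) and lay inside the range of 5EL. The averaged 5xFAD difference was 0.06 (SE 0.0479), and 5ELKO lay 0.10 above 5EL (SE 0.06, exact permutation p = 0.175). The differences of *Abca1* and *Abcg1* were not tested against each other.

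Among the receptors that take up lipoprotein, *Lrp1* varied widely between libraries of the same genotype. Its value was 13.41, 13.12 and 12.70 in EL, 13.43, 13.22 and 12.79 in ELKO, 13.44, 13.24, 12.94, 13.26 and 13.31 in 5EL and 13.32, 13.35, 13.30 and 13.19 in 5ELKO. EL replicate 3, ELKO replicate 3 and 5EL replicate 3 were the lowest, and all 4 genotypes overlapped. The averaged 5xFAD difference was 0.15 (SE 0.11, exact permutation p = 0.233).

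*Cd36*, which binds oxidised lipoprotein and fatty acids, was near the lower limit of the genes tested. Its value was 4.42, 4.25 and 4.28 in EL, 4.45, 4.46 and 4.33 in ELKO, 4.36, 4.54, 4.53, 4.38 and 4.44 in 5EL and 4.32, 4.49, 4.52 and 4.39 in 5ELKO. The whole range was 0.29 on the log2 scale, and 3 of 5 libraries of 5EL were above all of EL. The difference of 5EL from EL was 0.13 (SE 0.0603, limma adjusted p = 0.63, exact permutation p = 0.0893). It was 0.10 without EL replicate 2 and 0.11 without EL replicate 3, neither below a nominal limma p of 0.05. In 5ELKO against ELKO it was 0.01 (SE 0.0631).

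*Scarb1*, the high density lipoprotein receptor, was at 8.23, 8.05 and 7.78 in EL and 8.02, 8.10 and 8.03 in ELKO. It was at 8.20, 8.21, 8.20, 8.15 and 7.98 in 5EL and 8.04, 8.19, 8.20 and 7.92 in 5ELKO. The groups overlapped in every comparison. The averaged 5xFAD difference was 0.08 (SE 0.0669, exact permutation p = 0.238), and 5ELKO differed from 5EL by -0.06 (SE 0.0718).

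*Lpl* had the largest 5xFAD difference of the 10 genes. It lies on chromosome 8 (GRCm38, 68880491 to 68907448, plus strand). Its value was 7.53, 7.07 and 6.92 in EL and 7.35, 7.58 and 7.22 in ELKO. It was 7.90, 7.44, 7.65, 7.51 and 7.62 in 5EL and 7.74, 7.58, 7.40 and 7.88 in 5ELKO. EL replicate 1 was within the range of 5EL, and the other 2 EL libraries were below all 9 libraries with 5xFAD. The difference of 5EL from EL was 0.45 (SE 0.143), a fold of 1.37, with a 95% interval from 0.15 to 0.76, a limma adjusted p of 0.63 and an exact permutation p of 0.0536. 5ELKO lay 0.27 above ELKO (SE 0.15, exact permutation p = 0.143).

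Averaged over both Lilrb4a genotypes, *Lpl* lay 0.36 higher with 5xFAD (SE 0.103, limma adjusted p = 0.693, exact permutation p = 0.00918), and 5 of the 9 libraries with 5xFAD were above all 6 without it. *Lpl*, *Abca1* and *Npc1* were the 3 of 10 genes below a nominal p of 0.05 in the averaged comparison, where 6.57% of all genes were. EL replicate 1, the EL library with the high hepatocyte gene level, moved the *Lpl* value most. Without it the difference of 5EL from EL was 0.63 (SE 0.137, limma adjusted p = 0.0551), and the adjusted p lay between 0.0551 and 1.0 over all alternatives. In the fit without it 3204 of all 15804 genes were below a nominal p of 0.05, against 1217 in the main fit. Without EL replicate 3, the lowest library for *Lpl*, the difference was 0.33, the lowest with 1 library left out. In that fit 354 of all 15804 genes were below a nominal p of 0.05. In a fit with the hepatocyte gene level as a covariate the difference of 5EL from EL was 0.59 (SE 0.126). In the same fit that of 5ELKO from ELKO was -0.04, below 0. The mean hepatocyte gene level was 4.67 to 5.00 in 5ELKO and 4.26 to 4.46 in ELKO, without overlap. The covariate therefore cannot be separated from these genotypes, and no conclusion on *Lpl* in mice without Lilrb4a is drawn from this fit.

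**Figure D4:**
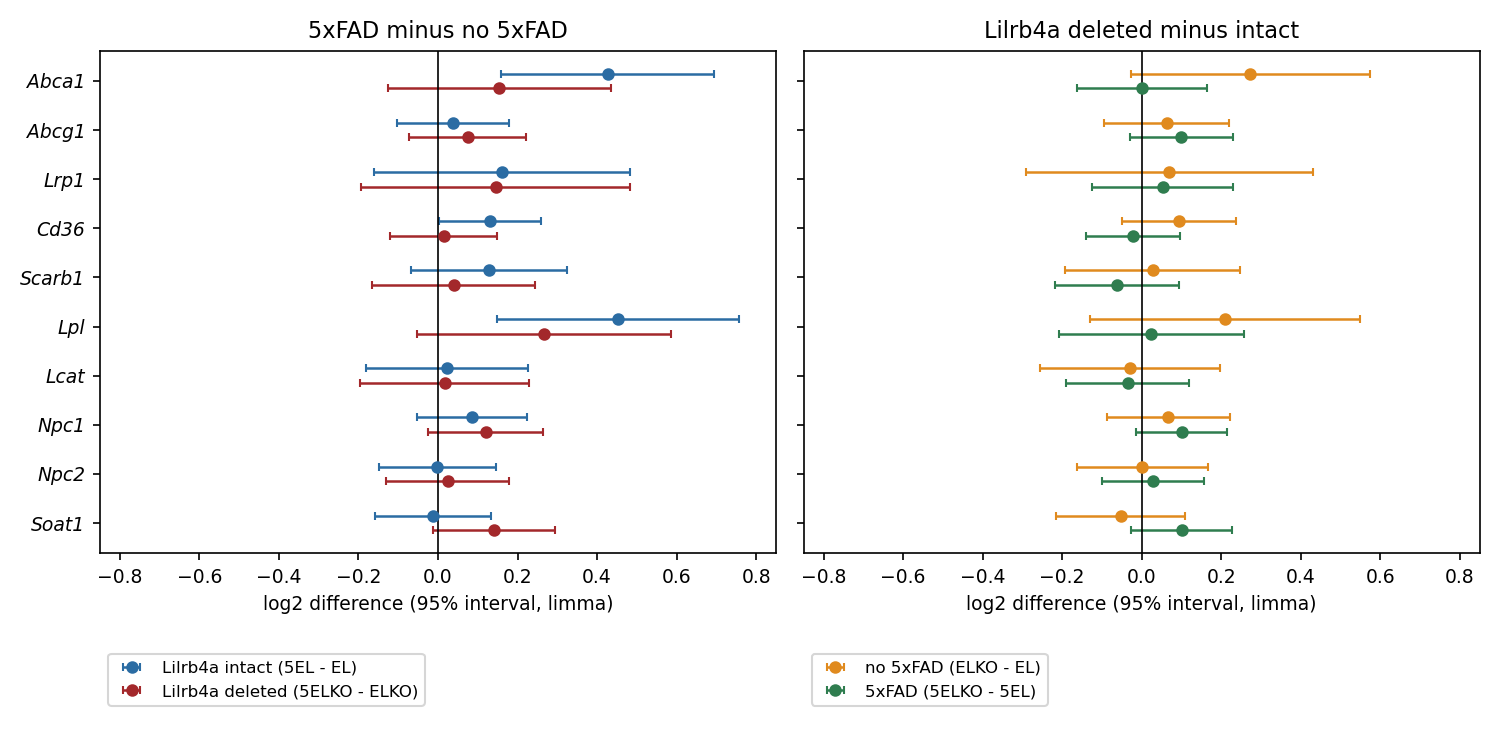
Log2 difference of each gene (x axis, with its 95% limma interval) for 5xFAD against no 5xFAD at each Lilrb4a genotype (left) and for Lilrb4a deleted against intact at each 5xFAD state (right). The intervals of *Abca1*, *Lpl* and *Cd36* in 5EL against EL lie above 0, and all 10 intervals of 5ELKO against 5EL cross it and end between -0.22 and 0.26.

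*Lcat*, which in brain is made mainly by astrocytes, was at 8.57, 8.69 and 8.93 in EL and 8.65, 8.57 and 8.89 in ELKO. It was at 8.71, 8.57, 8.91, 8.79 and 8.77 in 5EL and 8.64, 8.63, 8.75 and 8.85 in 5ELKO. The genotypes overlapped throughout, and the averaged 5xFAD difference was 0.02 with a 95% interval from -0.13 to 0.17. The libraries lowest in *Lrp1*, EL replicate 3, ELKO replicate 3 and 5EL replicate 3, were the highest in *Lcat*.

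For export from the endosome, *Npc1* was at 10.82, 10.83 and 10.69 in EL and 10.92, 10.91 and 10.71 in ELKO. It was at 10.90, 10.87, 10.71, 10.87 and 10.99 in 5EL and 10.95, 10.93, 11.01 and 10.98 in 5ELKO. The 4 libraries of 5ELKO were the only group in which none was below 10.9, and all lay above all 3 of ELKO, the nearest pair being 10.93 and 10.92. The difference of 5ELKO from ELKO was 0.12 (SE 0.0681), and its exact permutation p of 0.0286 was the smallest that 4 against 3 libraries allow. In this comparison none of the 10 genes was below a nominal p of 0.05 by limma, where 2.37% of all genes were. Without ELKO replicate 2, *Lpl* (0.36) and *Soat1* (0.20) were, without ELKO replicate 1 *Abca1* was, and without 5ELKO replicate 3 *Lpl* was (0.35). So were 2 of the 10 genes with the choroid plexus gene level as a covariate and 2 without the 2 libraries high in it. With Xist as a covariate 1 was, and without 5EL replicate 3 also 1. In these fits 270 to 790 of all 15804 genes were, against 375 in the main fit. Xist was near the lower end of the scale, at most 0.18 in EL, 0.17 in ELKO, 0.19 in 5EL and 0.31 in 5ELKO. The fit with it is therefore no adjustment for sex. 1 of 10, *Npc1*, had groups that did not overlap, against 3.4% of all genes. Averaged over both Lilrb4a genotypes, *Npc1* lay 0.10 higher with 5xFAD (SE 0.0471, limma adjusted p = 0.693, exact permutation p = 0.0378), and 0.06 higher (SE 0.0307) in a fit that held the length score of each library constant. Exons of *Npc1* share 511 bases with Rmc1 on the opposite strand, and reads were counted without strand, so reads of these 2 genes cannot be told apart there.

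*Npc2*, the soluble partner that hands cholesterol to Npc1, was at 10.25, 10.34 and 10.49 in EL and 10.29, 10.38 and 10.43 in ELKO. It was at 10.38, 10.22, 10.49, 10.40 and 10.31 in 5EL and 10.43, 10.28, 10.35 and 10.48 in 5ELKO. It was the gene with the smallest averaged 5xFAD difference of the 10, 0.01 with a 95% interval from -0.10 to 0.12. *Soat1*, which stores cholesterol as ester, was at 9.73, 9.80 and 9.64 in EL and 9.64, 9.79 and 9.58 in ELKO. It was at 9.84, 9.70, 9.52, 9.78 and 9.73 in 5EL and 9.81, 9.81, 9.84 and 9.79 in 5ELKO. As for *Abcg1*, the 5ELKO libraries were close together (SD 0.02), and 3 of 4 lay above all of ELKO. 5ELKO lay 0.14 above ELKO (SE 0.0716, exact permutation p = 0.0571), and 5EL differed from EL by -0.01 (SE 0.0685).

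Taking the 10 genes as a list, the median 5xFAD difference was 0.11 in 5EL against EL, where the median of all genes was 0.0006, and 0.10 in 5ELKO against ELKO, where it was -0.0005. The 2 comparisons share no library, and 8 and 10 of the 10 genes were above 0. The genes go together across libraries, so these counts are a description. The length score, a measure of each library's balance of long and short transcripts that is defined with its results, went the same way, with a mean of 0.01 in 5EL and 0.04 in 5ELKO against -0.04 in EL and -0.01 in ELKO, and its part in the medians was not tested.

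The comparison of main interest to the study was that of 5ELKO with 5EL, the effect of Lilrb4a deletion in mice with amyloid. None of the 10 genes was below a nominal p of 0.05 there, against 2.49% of all genes tested, and in none did the groups separate, against 1.06%. 3 genes of the 15743 passed at an adjusted p of 0.05, and all 3 were hepatocyte markers. *Abca1* had a difference of 0.00 with a 95% interval from -0.16 to 0.16. *Lpl* differed by 0.02 (-0.21 to 0.26) and *Cd36* by -0.02 (-0.14 to 0.10). These are values of bulk thalamus. The study's qPCR of *Abca1*, *Lpl* and *Cd36* was on sorted microglia, which were not measured here. The largest differences were those of *Npc1* (0.10, -0.01 to 0.22), *Soat1* (0.10, -0.03 to 0.23) and *Abcg1* (0.10, -0.03 to 0.23). Each of the 10 intervals, taken singly, ended short of the fold of 1.2 in either direction, a log2 value of 0.263, that the study used to call a gene. Low genes vary little on the deposited scale, on which the deleted Lilrb4a itself was at 2.53 in 5EL and 2.33 in 5ELKO, so for *Cd36* this is a limit on that scale, and a fold of the RNA may be larger. With the spread estimated from all 15 libraries in place of these 9, that held for 8 of 10, and the intervals of *Lrp1* (-0.24 to 0.35) and *Lpl* (-0.26 to 0.30) reached past it.

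Some alternatives took single genes below a nominal limma p of 0.05 in this comparison. They were the replicate number as a block (0.14) and leaving out 5EL replicate 5 (0.14) for *Abcg1*, leaving out 5EL replicate 5 for *Npc1* (0.13) and leaving out 5EL replicate 1 for *Soat1* (0.13). Of all 15743 genes, 384 were below it with the block, 448 without 5EL replicate 5 and 484 without 5EL replicate 1, against 392 in the main fit. Without 5xFAD, in ELKO against EL, no gene was below a nominal p of 0.05, where 2.35% of all genes were, and in none did the groups separate, against 4.59%. With the replicate number as a block, which treats libraries of the same number as pairs, *Abca1* (0.27, SE 0.123) was below a nominal p of 0.05, with an adjusted p of 0.963 by limma and one between 0.532 and 1.0 over all alternatives. The labels name no such pairs. *Lpl* was below that nominal p without EL replicate 1 (0.39) and with the hepatocyte gene level as a covariate (0.36). *Abca1* was also below it without ELKO replicate 3 (0.42). Of all 15804 genes, 438 were below it with the block, 1830 without EL replicate 1, 1664 with the covariate and 1375 without ELKO replicate 3. In the main fit 372 were. The same-numbered libraries of these groups deviate together. Between them *Abca1* differed by 0.72, 0.07 and 0.04, so that replicate 1 made nearly all of its mean. *Npc1* differed by 0.10, 0.08 and 0.02 and *Soat1* by -0.09, -0.01 and -0.06. Averaged over both 5xFAD states, none of the 10 genes was below a nominal p of 0.05 for the deletion (1.8% of all genes were), nor for the interaction (2.73%). For the averaged deletion *Abcg1* (0.10) and *Npc1* (0.10) were below it with the replicate block and without 5EL replicate 5, *Abca1* (0.21) and *Npc1* (0.12) without ELKO replicate 3, and *Lpl* (0.21) without EL replicate 1. Of all 15804 genes, 381, 263, 848 and 1236 were below it in these 4 fits in turn, against 285 in the main fit. For the interaction these were *Abca1* without ELKO replicate 3 (-0.42), *Soat1* with the choroid plexus gene level as a covariate (0.24) and without the 2 libraries high in it (0.25), and *Lpl* (-0.63) and *Scarb1* (-0.34) with the hepatocyte gene level as a covariate. Of all 15804 genes, 850, 320, 291 and 2192 were below it in these fits in turn, against 432 in the main fit. The hepatocyte gene level did not overlap between 5ELKO and ELKO, so that covariate cannot be separated from these genotypes.

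The other genes of these pathways were followed through 6 lists of 94 genes in all, of which 80 were tested. None passed the adjusted test, and in the averaged 5xFAD comparison 8 were higher and 1 lower at a nominal p under 0.05, or 11.25% against 6.57% of all genes. The scavenger receptors held 3 of the 8, among 13 tested. Cd68 was at 6.42 to 6.69 in the 6 libraries without 5xFAD and at 6.63 to 7.42 in the 9 with it, where 8 of 9 lay above, and differed by 0.48 (SE 0.114, limma adjusted p = 0.693). Cd14, the endotoxin co-receptor, was at 5.74 to 5.98 without and 5.85 to 6.42 with 5xFAD and differed by 0.32 (SE 0.0811, limma adjusted p = 0.693). Of the remaining lists, efflux transporters and their regulators had 2 of 12 higher, lipoprotein receptors and adaptors 1 of 15, lipases and remodelling enzymes 0 of 8, and intracellular transport, storage and turnover 1 of 20, with none lower in any of them. The apolipoproteins had 1 higher and 1 lower of 12. The genes of the efflux list were Mylip, the ubiquitin ligase that removes lipoprotein receptors (0.18, SE 0.0691), and Srebf1, the regulator of fatty acid synthesis (0.18, SE 0.0623), both LXR targets and both named after their values were seen. Among the apolipoproteins they were Clu (0.13, SE 0.049) and Apoo (-0.19, SE 0.0785), named in the same way.

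In 5ELKO against 5EL the same 80 genes had 4 higher and 3 lower at a nominal p under 0.05, 8.75% against 2.49% of all genes. The apolipoproteins held 3 of the 4 higher ones. Apoa1, the main high density lipoprotein protein, was at 4.34 to 4.71 in 5EL and 4.52 to 5.26 in 5ELKO and differed by 0.37 (SE 0.123, limma adjusted p = 0.999). Apoa2 differed by 0.27 (SE 0.103) and Apob by 0.23 (SE 0.0704). These are genes of liver and gut, and the 12 hepatocyte markers moved with them, 12 of 12 being positive and 11 below a nominal p of 0.05 in the same comparison. Alb was at 5.77 to 6.55 in 5EL and 7.22 to 8.38 in 5ELKO. The part of the hepatocyte genes in the apolipoprotein values was not tested. The 3 genes that were lower, named after their values were seen, were Nr1h2, which encodes LXR beta (-0.11, SE 0.0467), and the scavenger receptors Mrc1 (-0.26, SE 0.112) and Cd163 (-0.16, SE 0.066). Mrc1 and Cd163 also mark border macrophages, and of the other 2 tested markers of those cells 1 was lower at a nominal p under 0.05 and none at an adjusted p of 0.05.

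Markers of microglia were higher together with the 5xFAD differences. Of the 10 markers of disease-associated microglia, 9 were higher at a nominal p under 0.05 in the averaged comparison, against 6.57% of all genes, none at an adjusted p of 0.05, with a median of 0.39. The log2 of their summed level was 13.2 to 13.3 in the libraries without 5xFAD and 13.2 to 13.7 in those with it. Of the 8 general microglia markers 5 were higher, with a median of 0.17. Of the 6 astrocyte markers 1, Gfap, was higher, and their median was 0.04. In 5EL against EL, where 7.7% of all genes were below a nominal p of 0.05, 6 of 8 thalamic neuron markers were lower (median -0.27), as were 2 of 3 erythroid markers (median -1.20). In 5ELKO against ELKO none of either list was. All of these markers were expressed. Across the 15 libraries *Abca1* had a Pearson r of 0.81 with the mean level of the astrocyte markers and 0.71 with that of the disease-associated microglia markers, and *Lpl* 0.76 and 0.68. These are descriptions, since the points share genotype and library quality. After the group means were taken out, r was 0.67 and 0.50 for *Abca1* and 0.53 and 0.40 for *Lpl*. In a fit that also held the mean level of the general microglia markers, the averaged 5xFAD difference was 0.20 (SE 0.113) for *Abca1* and 0.28 (SE 0.13) for *Lpl*. For *Cd36* it was 0.16 (SE 0.0431), against 0.07 (SE 0.0436) without that term, and its limma adjusted p was at least 0.27 in all alternatives. With that term 2293 of all 15804 genes were below a nominal limma p of 0.05, against 1038 in the main fit. Within genotypes *Cd36* went against the level of the general microglia markers, with an r of -0.75. It also went against the thalamic neuron markers, with an r of -0.67 (-0.78 over all 15 libraries). The part of these cells in the member values was not tested beyond the fits given.

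The levels of several of the 10 genes went with a score of transcript length between libraries. For each library a length score was taken as the median deviation of the 20% of genes with the longest exons (at least 7464 bases) minus that of the 20% with the shortest (up to 2357 bases). It was lowest in EL replicate 3 (-0.18), ELKO replicate 3 (-0.16) and 5EL replicate 3 (-0.12) and highest in ELKO replicate 1 (0.11). *Lrp1*, with 17717 exonic bases longer than 98.8% of the genes tested, had an r of 0.96 with it over 15 libraries. It was 0.82 for *Npc1*, 0.75 for *Abcg1*, 0.61 for *Soat1*, 0.57 for *Abca1*, 0.46 for *Lpl*, 0.40 for *Scarb1* and 0.33 for *Cd36*. *Lcat*, the shortest of the 10 with 1342 bases, had an r of -0.74. *Npc2* had -0.69 although its 5438 bases are more than 63.6% of the genes tested have, and *Lpl* and *Scarb1*, with 10478 and 8500 bases, had weaker ones than *Abcg1* with 7298, so length alone did not order the genes. The source of the score was not tested. The study lists RNA integrity numbers and mapping rates for its 5EL and 5ELKO libraries, and none for EL and ELKO. These were not set against the score, so a part of RNA quality in it was not tested. With the score held constant, the averaged 5xFAD difference was 0.23 (SE 0.0845) for *Abca1* and 0.32 (SE 0.106) for *Lpl*.

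**Figure D5:**
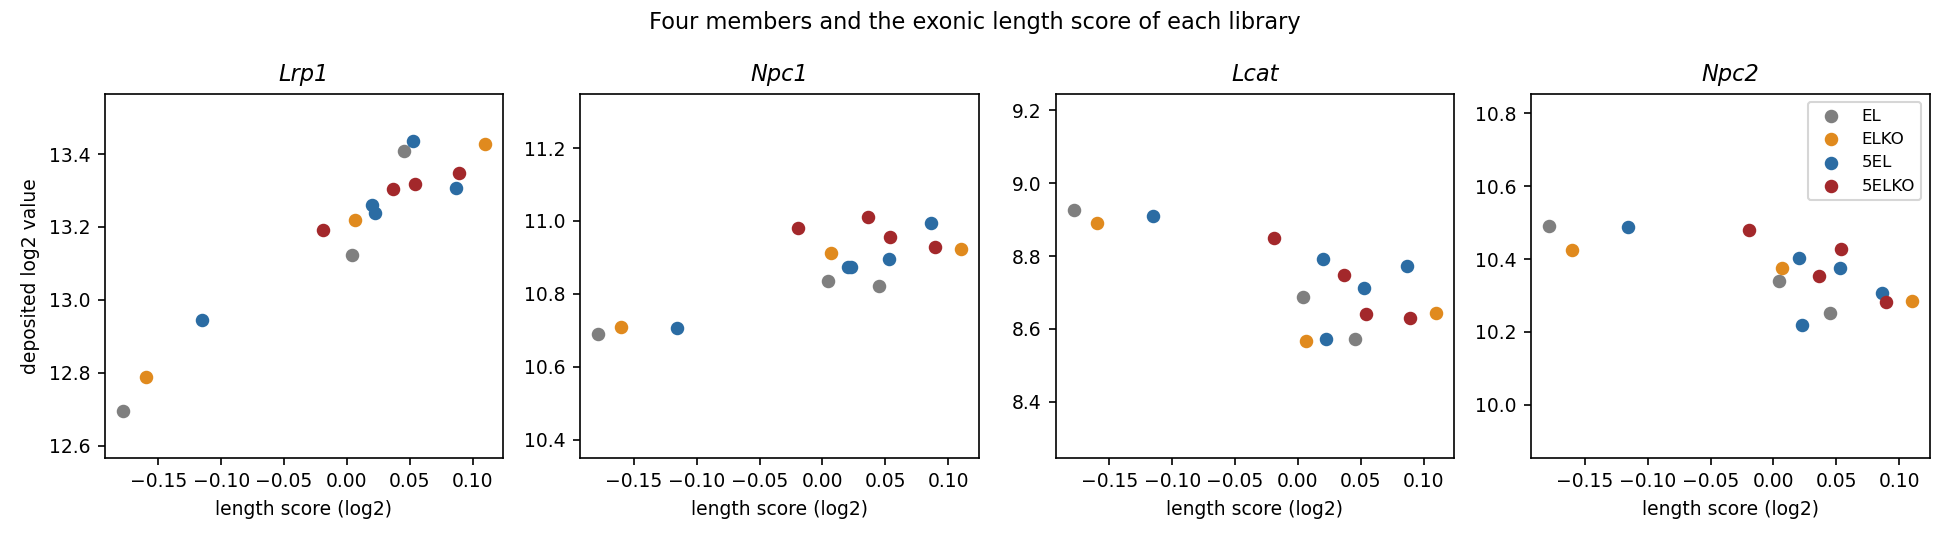
Deposited log2 values of *Lrp1*, *Npc1*, *Lcat* and *Npc2* (y axes, each spanning 1 log2 unit) against the exonic length score of the library (x axis), 1 point per library. *Lrp1* and *Npc1* are lowest and *Lcat* highest in the 3 libraries with scores from -0.18 to -0.12, which come from 3 genotypes, and *Npc2* is highest in 2 of the 3.

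The 45 pairs of the 10 genes had correlations from -0.73 (*Lrp1* with *Lcat*) to 0.86 (*Abcg1* with *Npc1*), with 28 above 0. *Lcat* with *Npc2* had 0.78, *Lrp1* with *Npc1* 0.78 and *Npc1* with *Soat1* 0.73. Among all genes tested, those whose values over the 15 libraries were most like *Lrp1* were Ubr4 (r of 0.98), Disp2 and Tnrc18, with 9555 to 17997 exonic bases. *Npc1* was most like Tgfbr2 (0.96), Wnk1 and Tjp1, and *Abca1* most like Svil (0.91), Mcc and Mtf1. *Abcg1* was nearest to Dennd4a (0.92), Zzz3 and Zdhhc21, and *Soat1* to Matn4 (0.86), Rrbp1 and Chdh. *Lcat* and *Npc2*, which went against the length score, had other neighbours, Taldo1 (0.92), Aldoc and Sepp1 for *Lcat* and Sepp1 (0.91), Lamp1 and Prdx6 for *Npc2*. *Lpl* was nearest to Rsad2 (0.87), Atf3 and P4hb, *Scarb1* to Paf1 (0.88), Phyhip and Lrrc16b, and *Cd36* to Ribc2 (0.87), 3300002A11Rik and Lrrc71. These likenesses share the libraries' length score and genotype and carry no test.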

How the data were processed

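Thalamus RNA of 15 mice was sequenced. Per the labels and the study's methods, the authors used FastQC 0.11.9, Trimmomatic 0.39, HISAT2 2.2.1 on GRCm38, SAMtools 1.16.1, featureCounts 2.0.3 (read pairs over exons, without strand) and DESeq2 1.38.3. The authors deposited log2 values, 1 file per library, with no counts. The transform behind them is not given in the sources used here, and low genes vary little on it, so that their folds may be understated. Values were tested with limma 3.58.1 (R 4.3.3, variance trend) for genes that reached 3.32 (log2 of 10) in at least the number of libraries held by the smaller group. This left 15743 genes in the 9 libraries of 5EL and 5ELKO and 15804 in all 15, used for the other 6 comparisons. All 10 members passed both. p-values were adjusted over all genes tested (Benjamini-Hochberg), and a gene was called at an adjusted p under 0.05. The members were also tested by two-sided exact permutation of the libraries. The smallest such p was 0.0079 for 5 against 4 libraries, 0.0179 for 5 against 3, 0.0286 for 4 against 3 and 0.1 for 3 against 3. The averaged 5xFAD difference is the mean of 5EL against EL and 5ELKO against ELKO.

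The members and all gene lists were chosen with earlier results of these data known. The genes named are the members, related genes with an adjusted p under 0.05 or a nominal p under 0.05 and a fold over 1.2, and the 3 genes most correlated with each member. Related genes outside this rule that make up a small count are named with the words that they were chosen after their values were seen. Exonic lengths (GENCODE) were found for 15285 of 15804 genes (96.7%). EL and ELKO libraries with the same number deviated from their group means together (r from 0.325 to 0.742 in 3 pairs). 5EL and 5ELKO did not (r from -0.244 to 0.143 in 4 pairs). The labels name no pairs, and libraries with different numbers were not compared, so whether the numbers mark pairs was not tested. The fit with the number as a block is given as an alternative. No column was left unmapped. The alternatives tried were other level filters, variance priors and centring, the replicate block, marker, length and Xist covariates, and leaving out libraries. Xist was near the lower end of the scale in all groups, so its covariate does not adjust for sex. The study states that experiments not separated by sex used male mice.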

Additional observations from a re-analysis of the deposited data

Results flagged for a closer look

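*Scarb1* in 5EL replicate 5 lay away from the other 4 libraries of its group. Its value of 7.98 was below the 8.15 to 8.21 of the others, and the gap to the nearest was 0.728 of the range of the group. 20 groups were checked in this way, of which about 1 in 20 would be picked out by chance. Without this library the averaged 5xFAD difference of *Scarb1* was 0.10 on the log2 scale (SE 0.0656), against 0.08 (SE 0.0669) with it.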

How the results depend on the processing

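No member was called at an adjusted p under 0.05 under any alternative that was run, so that the count stayed at 0 of 10 in all 7 comparisons (limma), with and without the replicate block. The replicate block treats same-numbered libraries as pairs, which the labels do not state, and EL and ELKO are the groups in which such libraries deviated together. With it *Abca1* in ELKO against EL kept its difference of 0.27 and was below a nominal p of 0.05 in all 15 libraries. It was not below it in the 6 libraries of these groups, an alternative added after the data were seen. The block gave 0.23 (SE 0.0873) for *Abca1*, 0.34 (SE 0.0994) for *Lpl* and 0.08 (SE 0.0418) for *Npc1* in the averaged 5xFAD comparison. The length score was also added after the data were seen. With 1 library left out at a time, the averaged difference ranged from 0.22 to 0.40 for *Abca1* and from 0.30 to 0.45 for *Lpl*. Of 1853 recomputed values of single genes, 134 changed sign, all of them values past no threshold. The level filter at 5 removed *Cd36*. With no counts, no limit from the depth behind each gene could be given. The study lists total reads for its 5EL and 5ELKO libraries only, and these were not used.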
